A study of Mus musculus with 6 samples.

Results

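The potassium channel genes outside the Kv1 family make up 84 of the 37979 gene entries measured in the hindlimb gastrocnemius (GAS) muscles of Kvβ2 knockout (KO) and wildtype (WT) mice. They were taken by their symbols, which start with Kcn, letters and a number, and the Kv1 α-subunit genes (*Kcna* and a number) and the Kvβ genes *Kcnab1*, *Kcnab2* and *Kcnab3* were left out. The 84 entries carry 82 symbols, since *Kcnh8* and *Kcnb2* are each listed under 2 gene identifiers. RNA came from untreated male mice aged 20 weeks, 3 WT and 3 Kvβ2-/- KO mice bred from heterozygous null parents, and each mouse gave 1 library. The null allele is present in every cell of the KO mice, so the muscle fibers, nerves and vessels of the sample all lack the gene. Each genotype has libraries numbered 1, 7 and 8, and values per library follow that order. The values are FPKM, fragments scaled to transcript length and to the mapped fragments of the library, from TopHat and Cufflinks as run by the authors. They allow for transcript length, so that levels of different genes can be compared.

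Potassium channels set the resting potential of the muscle fiber and return it to rest after each action potential. The pore-forming α-subunits fall into voltage-gated (Kv), inwardly rectifying (Kir), calcium- or sodium-activated and tandem-pore (K2P) classes, and the smaller auxiliary subunits alter their gating or their traffic to the membrane. In skeletal muscle, Kir2 channels hold the resting potential, ATP-sensitive (KATP) channels built around Kir6.2 open when the fiber runs low on energy, and Kv3.4 is a rapidly inactivating channel of the fiber membrane. Kvβ2, the product of the deleted gene, is a partner of the Kv1 α-subunits. The paper names Kv4 as well as Kv1 α-subunits as partners of the Kvβ subunits, and Kv4 genes such as *Kcnd3* are among the entries here. The question here is which of the other potassium channel genes the GAS muscles hold, and whether their levels differ between the genotypes.

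The targeted gene *Kcnab2* read 0.23, 0.10 and 0.11 FPKM across the WT mice. In KO muscle it read 0.0151 FPKM in replicate 7 and was listed at 0 in the other libraries. The steps between the lowest FPKM values gave an estimated 14700000 to 19070000 fragments in the KO and 20430000 to 21410000 in the WT libraries. The muscle fiber markers *Ckm*, *Acta1*, *Mb*, *Pygm*, *Actn3*, *Casq1*, *Myh1* and *Myh2* were each at 178 FPKM or more in every library. *Myh7*, a further fiber marker, was lower and uneven, at 24.3, 22.1 and 0.0513 FPKM across WT and 15.2, 50.5 and 77.4 FPKM across KO mice. *Myh4*, the myosin of the fast fibers that fill this muscle, was listed at 0 in all 6 libraries, so a listed 0 is not read as absence here.

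The selectivity filter is the short loop through which potassium ions pass, and its codons for glycine, an aromatic residue and glycine are shared by the α-subunits. The coding sequences around the filter are shown for several of the genes on which the results below turn, as 30 bases of the sense strand, 5′ to 3′, with the codons for glycine, tyrosine or phenylalanine, and glycine in capitals. They were read from the GENCODE vM21 transcripts of GRCm38, and each lies within 1 coding exon.
Kcnc1, chr7:46427964-46427993, plus strand: accatgacgacactgGGCTATGGAgacatg
Kcnc4, chr3:107447793-107447822, minus strand: accatgacaacgcttGGCTATGGGgacatg
Kcnh2, chr5:24325549-24325578, minus strand: agcctcaccagcgtgGGCTTTGGCaatgtc
Kcnj11, chr7:46099490-46099519, minus strand: gtccaggtgaccattGGTTTCGGCgggcgc
Kcnj2, chr11:111072198-111072227, plus strand: acccagacaaccattGGCTATGGTttcagg

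Related channels kept the same residues with different bases, and *Kcnc1* shared 26 of the 30 bases with *Kcnc4*. Over the whole coding sequence, G or C stood at the third codon position in 77.3% of the codons of *Kcnc1* and 57.2% of those of *Kcnq5*. The same share was 72.4% in *Kcnj12* and 54.9% in *Kcnj2*, the lowest of the 17 coding sequences examined. The *Kcnn2* sequence was not examined.

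Few of these genes carried most of the signal. Of the 84 entries, 44 were above 0 FPKM in all 6 libraries, 24 in some of them, and 16 were listed at 0 in all 6. The filter of the test, an average of 0.5 FPKM or more across the 6 libraries, was reached by 18 entries, and 13 were at 1 FPKM or more. The 18 held 95.0% of the summed FPKM of the family, and all 18 encode pore-type α-subunits, while 0 of the 13 auxiliary subunit genes passed. *Kcnk6* (mean 0.521 FPKM) lay just inside the filter and *Kcnj3* (mean 0.397 FPKM) just outside.

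The highest level belonged to *Kcnj11*, which encodes Kir6.2, with a mean of 26.9 FPKM over the 6 libraries. *Kcnc4* (Kv3.4) followed at 16.3, *Kcnj12* (Kir2.2) at 12.7 and *Kcng4*, a modifier subunit that forms no channel of its own, at 10.9 FPKM. *Kcnj2* (Kir2.1) at 9.35, *Kcnc1* (Kv3.1) at 7.36 and *Kcnma1*, the large-conductance calcium-activated (BK) channel, at 6.47 FPKM came next. The order among neighbors was not firm, since the libraries of *Kcnj12* spanned 7.75 to 16.4 FPKM and those of *Kcng4* 8.86 to 13.1 FPKM. Those of *Kcnj2* spanned 5.04 to 15.7 FPKM, and in WT replicate 1 *Kcnj2* was above *Kcnj11* (15.7 against 14.3 FPKM). In WT alone *Kcnj2* averaged 11.6 FPKM, as did *Kcnj12*. From *Kcnj8* (4.03 FPKM) down to *Kcnn1* (2.71 FPKM), the 6 genes of the next rank also overlapped in their ranges.

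**Figure D1:**
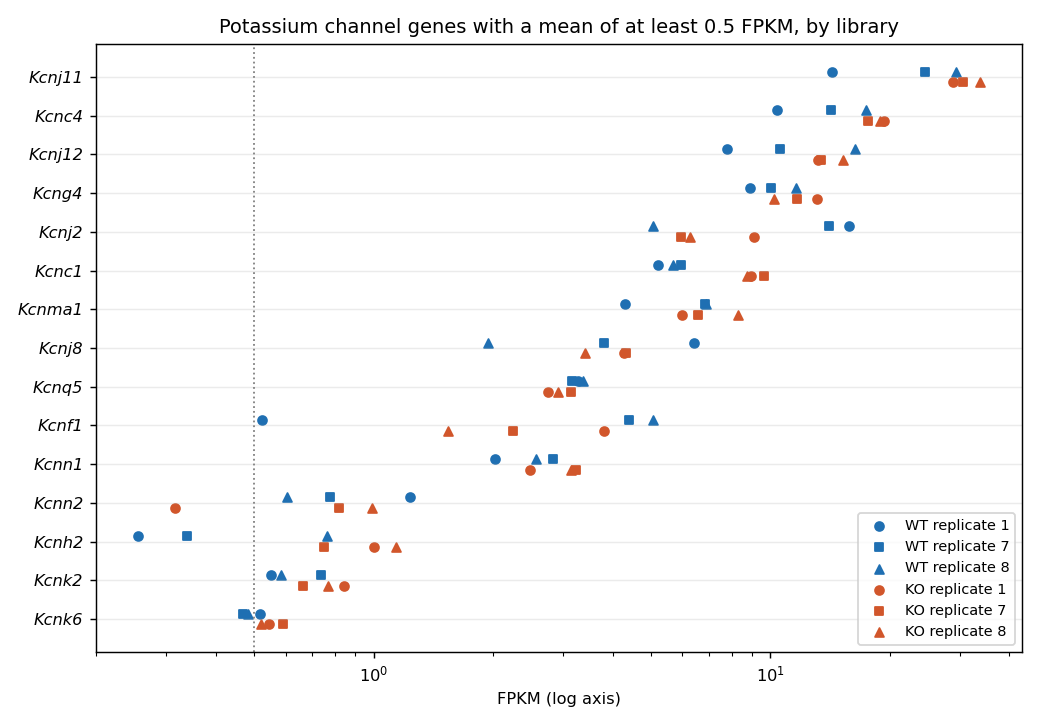
FPKM of 15 of the 18 potassium channel genes that passed the filter (rows, in order of mean level) in each library, on a log axis, with WT in blue and KO in orange and a marker shape per replicate number. The dotted line is the filter at 0.5 FPKM, and WT replicate 1 (blue circle) is the lowest of the 6 libraries for 10 of the 15 genes shown.

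By class, the inward rectifiers held the most signal, with a summed FPKM of 50.9 ± 4.74 in WT against 57.0 ± 1.87 in KO muscle (SD, n = 3 each). The 24 entries of the Kv pore genes summed to 25.7, 31.7 and 37.0 FPKM across WT and to 42.1, 40.7 and 41.4 FPKM across KO mice. Each KO library was above each WT library in the sum of the Kv pore class, which *Kcnc4* and *Kcnc1* dominate. The same held for the inward rectifiers (45.5, 53.6 and 53.8 FPKM across WT, 56.4, 55.6 and 59.2 FPKM across KO mice) and for the tandem-pore genes (1.73 to 1.75 and 1.78 to 2.72 FPKM). In the tandem-pore sum, WT replicate 8 (1.751 FPKM) and KO replicate 1 (1.776 FPKM) nearly met, and only 2 of these 14 genes passed the filter of the test. How often sums over other sets of genes separate was not computed. The FPKM of all gene entries summed to 382780, 432353 and 402269 across WT and to 469361, 431414 and 477356 across KO mice. The class sums were neither scaled to these totals nor corrected for GC content. The modifier (silent) Kv subunits summed to 13.8 ± 3.55 FPKM in WT against 14.7 ± 2.76 FPKM in KO muscle (SD, n = 3 each). The calcium- or sodium-activated genes summed to 10.3 ± 1.36 and 11.6 ± 1.997 FPKM (SD, n = 3 each), and the libraries of the genotypes overlapped in both of these classes. The 14 tandem-pore genes stayed at 2.72 summed FPKM or less in every library, and the 13 auxiliary genes at 2.53 or less.

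**Figure D2:**
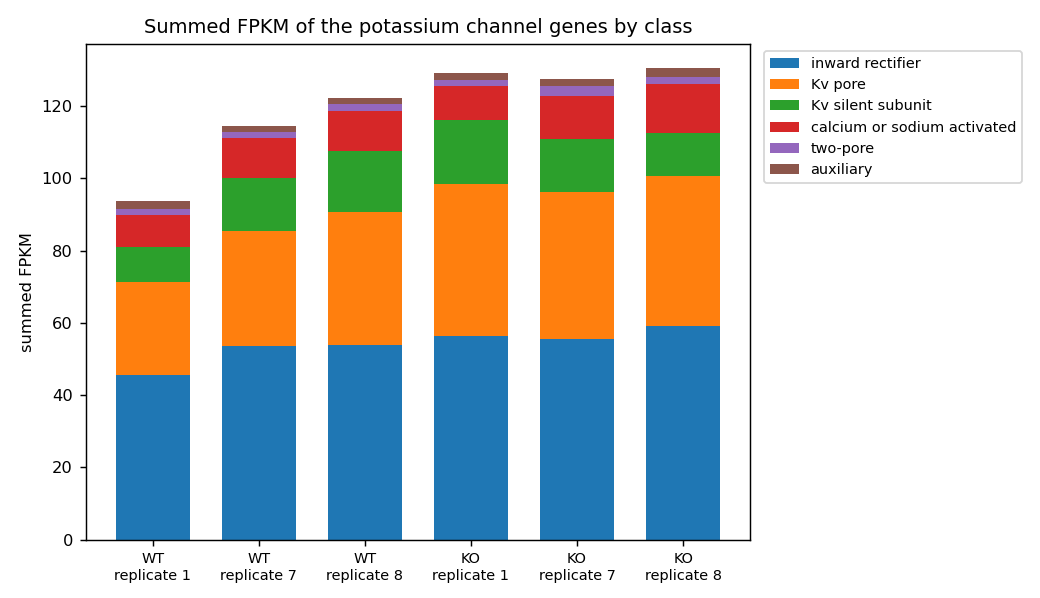
Summed FPKM of all 84 entries by class (colors) in each library, on an axis from 0. The whole bar is 93.8 to 122 FPKM in the WT and 127 to 131 FPKM in the KO libraries, and the Kv pore part (orange) is 25.7 to 37.0 FPKM in WT and 40.7 to 42.1 FPKM in KO.

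For the difference between the genotypes, limma was fitted to log2(FPKM + 0.1) of the 12334 genes that reached the filter. P-values were adjusted over all of these by Benjamini and Hochberg, and a log2 fold change (KO minus WT) understates the change of low genes. Of the 18 channel genes tested, 0 had an adjusted p under 0.05 in either direction, where 0.324% of all genes tested did (0.251% higher and 0.073% lower in KO muscle). At an unadjusted p under 0.05, 4 were higher (*Kcnc1*, *Kcnh2* and *Kcnc4* among them) and 0 lower, beside 15.3% and 10.9% of all genes tested. With limma's array weights, which weight the libraries unequally, 4 genes were higher at an adjusted p under 0.05 (with 0.00671 for *Kcnc1*, 0.0215 for *Kcnh2* and 0.0415 for *Kcnc4*), beside 15.1% of all genes tested. The KO libraries lay entirely above the WT libraries for 4 genes (*Kcnc1*, *Kcnc4* and *Kcnk6* among them) and entirely under them for *Kcnq5*, where 18.3% and 16.2% of all genes tested did so. *Kcnh2* (WT mean 0.452, KO mean 0.965 FPKM) and *Kcnk6* (WT mean 0.490, KO mean 0.552 FPKM) passed the filter only through the KO libraries, so that their place among the higher genes is partly set by the filter. With the filter at 1 FPKM, 3 genes were higher at an unadjusted p under 0.05. These counts are therefore a description, and 3 against 3 libraries cannot give an exact permutation p under 0.1. Of the 18, 15 had a positive log2 fold change, against 51% of all genes, but after the correction for GC content described below 6 of the 18 did, against 49.9%. Their median was 0.25, against 0.010 over all genes tested.

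The Kv3 family, voltage-gated channels that open at depolarized potentials and repolarize the membrane rapidly, gave the clearest separation. *Kcnc1* (ENSMUSG00000058975, chromosome 7, 46396497 to 46438704 of GRCm38) gave 5.20, 5.95 and 5.69 FPKM across WT and 8.95, 9.62 and 8.74 FPKM across KO mice. The libraries of each genotype lay close together, and the lowest KO library was well above the highest WT library. Its log2 fold change was 0.69 (standard error 0.11, unadjusted p = 0.000353, adjusted p = 0.0667 by limma). Leaving out any 1 library kept it between 0.64 and 0.73, with adjusted p-values of 0.0737 to 0.235. *Kcnc1* was also the one channel gene whose KO libraries stayed above all WT libraries after the correction for GC content, at 0.27 on the log2 scale (standard error 0.098, adjusted p = 0.427 by limma).

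*Kcnc4* (ENSMUSG00000027895, chromosome 3, 107438303 to 107459552) read 10.4, 14.2 and 17.4 FPKM in its WT libraries against 19.3, 17.6 and 18.8 FPKM in its KO libraries. The KO libraries were tight and the WT libraries spread, so that WT replicate 8 nearly reached KO replicate 7. The gene has 1 annotated transcript, and its values rest on an estimated 752 to 1312 fragments per library. The log2 fold change was 0.44 (standard error 0.18, adjusted p = 0.188 by limma), and it was 0.24 without WT replicate 1. After the correction for GC content it turned to -0.17 and the genotypes overlapped. *Kcnc2* (Kv3.2) stayed at 0.0962 FPKM or less in every library. The ratio of *Kcnc4* to *Kcnc1* within a library was 1.996 to 3.05 in WT and 1.83 to 2.15 in KO muscle.

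**Figure D3:**
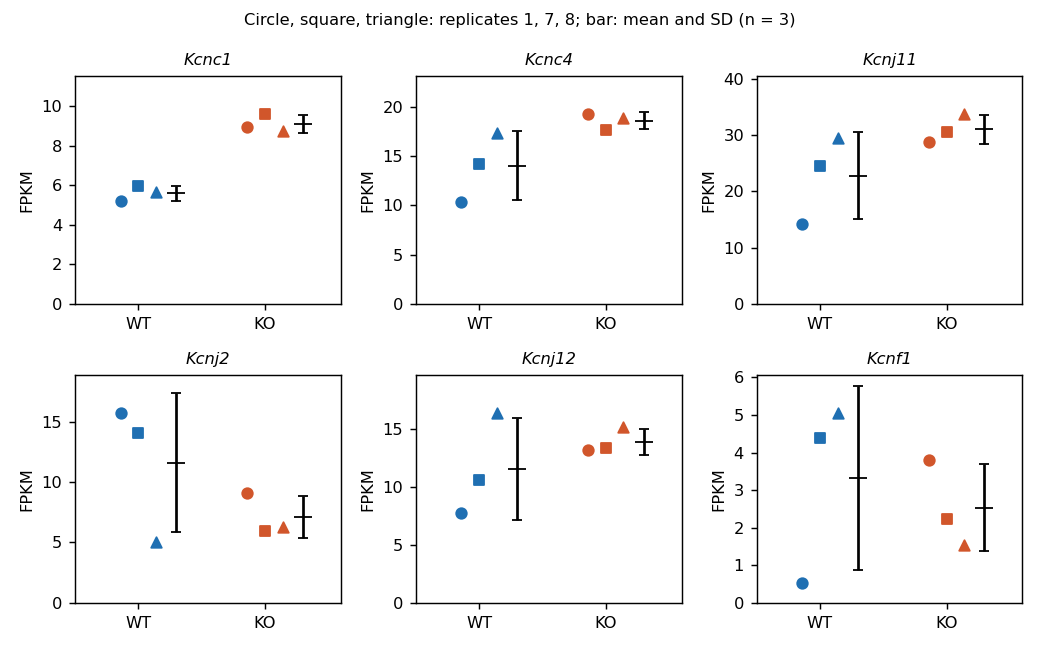
FPKM of 6 channel genes in each library, on axes from 0, with WT in blue and KO in orange; the black bar is the mean and SD of 3 libraries. The genotypes separate for Kcnc1 (WT 5.20 to 5.95, KO 8.74 to 9.62) and Kcnc4, while the WT libraries alone span 5.04 to 15.7 FPKM for Kcnj2 and 0.523 to 5.06 FPKM for Kcnf1.

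The Kv7 channels open near the resting potential and dampen excitability. *Kcnq5* (Kv7.5; ENSMUSG00000028033, chromosome 1, 21398403 to 21961942) read 3.27, 3.17 and 3.37 FPKM in its WT libraries against 2.76, 3.14 and 2.92 FPKM in its KO libraries. WT replicate 7 and KO replicate 7 were nearly equal, and the log2 fold change was -0.15 (95% interval -0.44 to 0.14, adjusted p = 0.456 by limma).

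*Kcnq1*, which encodes the Kv7.1 of heart and inner ear, was under the filter at 0.119 to 0.337 FPKM. *Kcnq3* was listed at 0 in all libraries.

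*Kcnh2* (ENSMUSG00000038319, chromosome 5, 24319589 to 24351604) encodes Kv11.1 (ERG1), best known for the repolarization of the heart. It gave 0.255, 0.339 and 0.763 FPKM across WT and 1.00, 0.751 and 1.14 FPKM across KO mice. WT replicate 8 lay just above KO replicate 7, so the genotypes overlapped. The log2 fold change was 1.04 (standard error 0.40, adjusted p = 0.163 by limma) and 0.39 (standard error 0.38) after the correction for GC content. The WT mean of 0.452 FPKM was under the filter, which the gene passed through its KO libraries.

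Modifier subunits combine with other Kv subunits and change their gating. *Kcng4* (Kv6.4; ENSMUSG00000045246, chromosome 8, 119623854 to 119635680) gave 8.86, 10.03 and 11.6 FPKM across WT and 13.1, 11.6 and 10.19 FPKM across KO mice. The genotypes overlapped, and the log2 fold change was 0.19 (95% interval -0.15 to 0.54, adjusted p = 0.428 by limma). After the correction for GC content it was -0.36 (standard error 0.13, unadjusted p = 0.0306, adjusted p = 0.428 by limma), and all KO libraries then lay under all WT libraries.

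*Kcnf1* (Kv5.1; ENSMUSG00000051726, chromosome 12, 17172100 to 17176888) had the widest spread of the channel genes tested, 9.68 times between its highest and lowest library. It read 0.523, 4.40 and 5.06 FPKM in its WT libraries against 3.80, 2.24 and 1.54 FPKM in its KO libraries. WT replicate 1 lay under every other library, and the other WT libraries lay above every KO library. The gene has 1 annotated transcript, and these values correspond to an estimated 50 fragments in WT replicate 1, 418 and 503 in the other WT libraries and 114 to 261 in the KO libraries. The log2 fold change was 0.017 (95% interval -1.81 to 1.84) over all libraries, -0.97 without WT replicate 1 and -0.26 after the correction for GC content.

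The inward rectifiers hold the membrane near rest. *Kcnj2* (Kir2.1; ENSMUSG00000041695, chromosome 11, 111066164 to 111076821) is the gene of Andersen-Tawil syndrome, a disorder with periodic paralysis. It gave 15.7, 14.02 and 5.04 FPKM across WT and 9.07, 5.94 and 6.28 FPKM across KO mice. WT replicates 1 and 7 were above every KO library and WT replicate 8 was under every KO library. The log2 fold change was -0.57 (standard error 0.41, adjusted p = 0.412 by limma), and with each library left out it ranged from -1.08 without WT replicate 8 to -0.27 without WT replicate 1.

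*Kcnj12* (Kir2.2; ENSMUSG00000042529, chromosome 11, 61022564 to 61071131) read 7.75, 10.6 and 16.4 FPKM in its WT libraries against 13.1, 13.4 and 15.2 FPKM in its KO libraries. Here WT replicate 8 was the highest of the 6 libraries and WT replicate 1 the lowest, the opposite of *Kcnj2*. The log2 fold change was 0.33 (95% interval -0.26 to 0.91), 0.075 without WT replicate 1 and -0.15 after the correction for GC content. The ratio of *Kcnj12* to *Kcnj2* was therefore 0.493, 0.755 and 3.25 in WT replicates 1, 7 and 8, and 1.45, 2.25 and 2.42 in the KO replicates. The WT libraries thus spanned the whole range of the KO libraries in the balance of these Kir2 genes. *Kcnj14* (Kir2.4) and *Kcnj4* (Kir2.3) stayed at 0.228 and 0.0671 FPKM or less.

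*Kcnj11* (Kir6.2) gave 14.3, 24.6 and 29.4 FPKM across WT and 28.8, 30.5 and 33.8 FPKM across KO mice. It lies on chromosome 7, 46093953 to 46100764, in the annotation entry of the same symbol, since its identifier in the table (ENSMUSG00000070561) is not in GENCODE vM21. Only WT replicate 8 overlapped with the KO libraries, and the log2 fold change was 0.51 (standard error 0.25, adjusted p = 0.240 by limma), but 0.20 without WT replicate 1 and 0.00033 after the correction for GC content. *Kcnj8* (Kir6.1), the KATP pore of vascular muscle and pericytes, read 6.43, 3.80 and 1.94 FPKM in its WT libraries against 4.27, 4.33 and 3.42 FPKM in its KO libraries. Its WT libraries bracketed all KO libraries, and the log2 fold change was 0.13 (95% interval -0.76 to 1.02), -0.31 without WT replicate 8 and -0.0034 after the correction for GC content.

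Among the calcium-activated channels, *Kcnma1* (BK; ENSMUSG00000063142) gave 4.29, 6.82 and 6.86 FPKM across WT and 5.98, 6.58 and 8.30 FPKM across KO mice. The genotypes overlapped, with a log2 fold change of 0.23 (95% interval -0.27 to 0.73) that was 0.30 after the correction for GC content and 0.010 without WT replicate 1. The small-conductance channel *Kcnn1* (SK1) averaged 2.47 ± 0.412 FPKM in WT against 2.95 ± 0.413 FPKM in KO muscle (SD, n = 3 each), a log2 fold change of 0.25 (95% interval -0.17 to 0.67). After the correction for GC content it turned to -0.29, and each KO library was then under each WT library. *Kcnn2* (SK2) read 1.23, 0.778 and 0.605 FPKM in its WT libraries against 0.316, 0.818 and 0.993 FPKM in its KO libraries, with no separation. *Kcnn3* (SK3), which adult muscle is known to make after the loss of its nerve, was at 0.0490 to 0.302 FPKM, under the filter in both genotypes.

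The tandem-pore channels carry background potassium current. *Kcnk2* (TREK-1), a mechanically and lipid-gated channel, averaged 0.625 ± 0.0997 FPKM in WT against 0.758 ± 0.089 FPKM in KO muscle (SD, n = 3 each), and the genotypes overlapped. *Kcnk6* (TWIK-2) gave 0.517, 0.470 and 0.483 FPKM across WT and 0.544, 0.590 and 0.520 FPKM across KO mice. Its genotypes did not overlap, but KO replicate 8 and WT replicate 1 were nearly equal and the log2 fold change was 0.14 (95% interval -0.56 to 0.85), or -0.014 with overlap after the correction for GC content. The other 12 tandem-pore genes were under the filter, and 5 of the 14 were listed at 0 in all libraries.

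The auxiliary subunits, which tune these channels, were scarce. *Kcne3*, the small subunit that joins Kv3.4 in muscle, was at 0.126 to 0.580 FPKM, and *Kcne1* was listed at 0 in all libraries. *Kcnip2*, a calcium sensor of Kv4 channels, was at 0.178 FPKM or less, beside 0.0499 FPKM or less for its Kv4 partner *Kcnd3*. *Kcnmb1*, the BK β-subunit of smooth muscle, was at 0.0166 to 0.153 FPKM. *Kcne4* and *Kcne1l* reached 0.513 and 0.681 FPKM in their highest library, and no auxiliary gene exceeded the latter.

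Among the 66 entries under the filter, 50 were above 0 in some library, and 6 of them, named after their values were seen, did not overlap between the genotypes. The KO libraries lay above the WT libraries for *Kcnq1* and *Kcnj10* and under them for *Kcnh6*, *Kcnh7*, *Kcnd3* and *Kcnmb2*, where 5.89% and 3.24% of all genes of this kind did so. *Kcnmb2*, a BK β-subunit, read 0.228, 0.210 and 0.243 FPKM across the WT mice. The KO libraries read 0.0273 and 0.0920 FPKM, with KO replicate 8 listed at 0. Without the filter, *Kcnmb2* was the 1 entry of these 50 with an unadjusted p under 0.05 (log2 fold change -1.28, adjusted p = 0.126 by limma). The share of all genes under the filter at that p was not computed. For scale, 1 fragment on a kilobase of transcript amounted to 0.0467 to 0.0680 FPKM, and less on longer transcripts.

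GC content moved with the differences between the genotypes. Across all tested genes, which are not independent replicates, Spearman's rho of the log2 fold change with the GC content of the transcripts was 0.70, and across the 18 channel genes, measured in the same 6 libraries, it was 0.73. The channel genes are rich in GC, with a median of 55.3% against 50.05% for all tested genes. All 9 channel genes of 55% GC or more had a positive log2 fold change, as did 92.0% of all tested genes in that range. Of the 6 channel genes between 50% and 55%, 5 were positive, beside 70.4% of all tested genes there, and of the 3 under 50%, 1 was (*Kcnma1*), beside 21.9%. *Kcnj2*, with 41.2% GC, had the lowest GC content and the lowest log2 fold change of the 18.

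**Figure D4:**
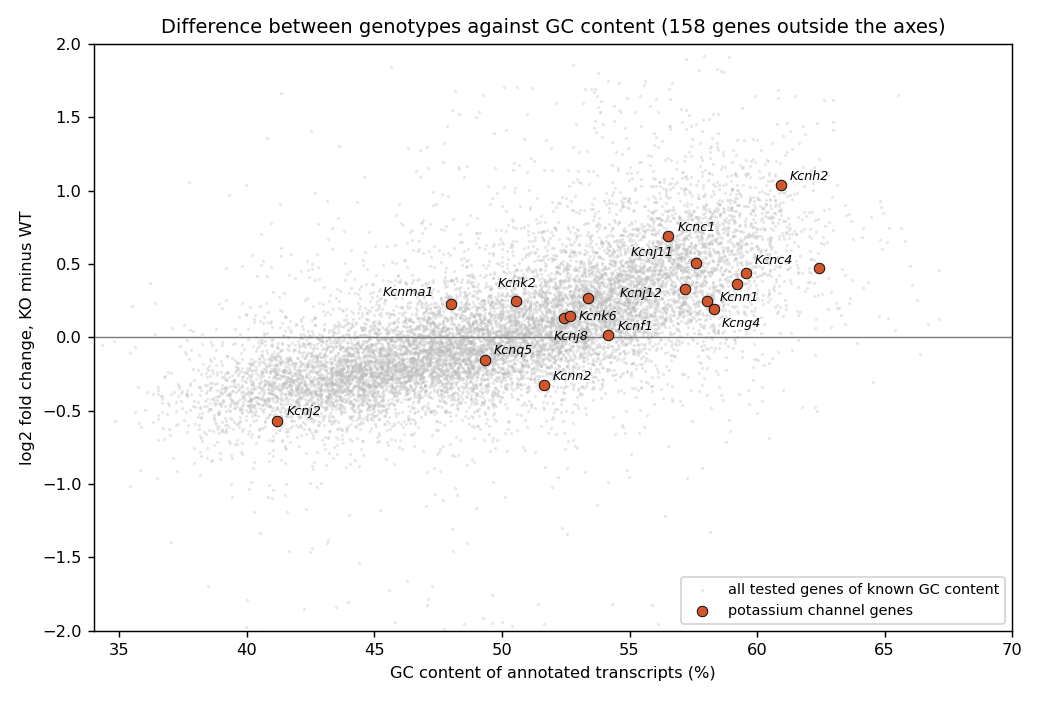
Log2 fold change (KO minus WT) of each tested gene against the GC content of its annotated transcripts in percent, with the 18 channel genes in orange over all tested genes in grey. The channel genes run with the grey cloud, with Kcnj2 lowest at 41.2% and -0.57 and Kcnh2 at 60.9% and 1.04, and 15 of them are labelled.

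When each library's trend on GC content was subtracted, 9 of the 18 log2 fold changes turned from positive to negative, and the median went from 0.25 to -0.13. At an unadjusted p under 0.05, *Kcnc1* was higher and *Kcng4* lower in KO muscle, beside 5.39% and 5.34% of all genes tested. The KO libraries then lay above all WT libraries for *Kcnc1* and under them for 3 genes (*Kcng4* and *Kcnn1* among them), beside 8.17% and 9.01% of all genes. *Kcnma1* went from 0.23 to 0.30 and *Kcnk2* from 0.25 to 0.23. At an adjusted p under 0.05, 0 of the 18 were called in either direction.

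**Figure D5:**
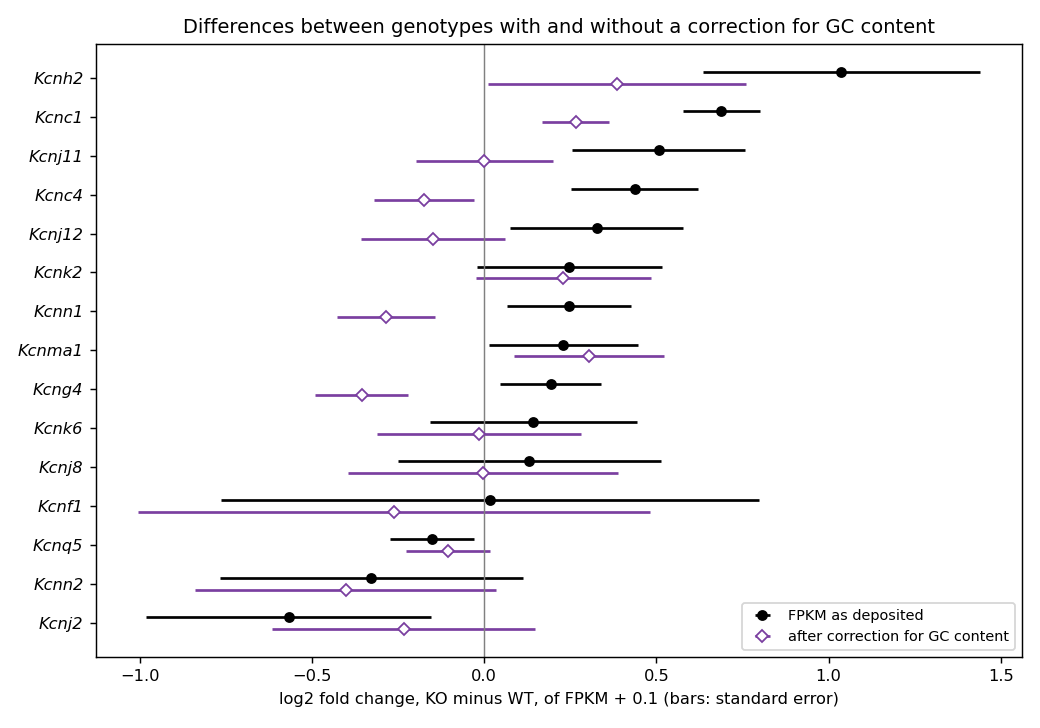
Log2 fold change of FPKM + 0.1 (KO minus WT) of 15 of the 18 channel genes, as deposited (black) and after the correction for GC content (open purple), with bars of 1 standard error. After the correction Kcnj11 goes from 0.51 to 0.00033 and Kcnc4 from 0.44 to -0.17, and Kcnc1 stays positive at 0.27.

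WT replicate 1 stood apart for these genes. It was the lowest of the 6 libraries for 13 of the 18, against 29.6% of all tested genes, and for 8 of the 18 after the correction for GC content, against 21.7%. It was the highest for *Kcnj2*, *Kcnj8* and *Kcnn2*. Without it, 1 of the 18 genes was higher and 1 lower at an unadjusted p under 0.05, and the median log2 fold change was 0.11. Without WT replicate 8, which had the highest *Kcnj12*, *Kcnq5* and *Kcnf1*, these were 7 higher and 1 lower, with a median of 0.38. The shares and medians over all genes without these libraries were not computed, so these counts are a description only.

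Partners of these channels were looked at through a list of 30 genes, found in 31 entries since *Wnk1* is listed in a pair of entries, of which 24 were tested. Of these, 8 had a positive and 16 a negative log2 fold change, where 51% of all genes tested were positive, and the median was -0.13 against 0.010. By limma 0 had an adjusted p under 0.05 (0.324% of all genes), and at an unadjusted p under 0.05 there were 2 higher and 1 lower (15.3% and 10.9% of all genes). *Abcc9*, the SUR2 subunit that completes the KATP channel, read 42.9, 53.2 and 54.6 FPKM in its WT libraries against 51.6, 35.8 and 47.8 FPKM in its KO libraries, with overlap. *Abcc8* (SUR1) was at 0.325 FPKM or less. *Calm2*, a calmodulin gene whose protein is the calcium sensor of SK channels, gave 224, 209 and 235 FPKM across WT and 179, 118 and 157 FPKM across KO mice (log2 fold change -0.57, adjusted p = 0.0962 by limma; -0.30 after the correction for GC content). *Pip5k1c*, an enzyme that makes the phosphoinositide on which Kir and Kv7 channels depend, was at 2.74 to 3.92 FPKM in WT and 5.05 to 6.14 FPKM in KO muscle (log2 fold change 0.69, adjusted p = 0.0785; 0.064 after the correction).

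In whole muscle, fewer cells of a type and less RNA per cell cannot be told apart, and marker values of several cell types are given beside the channel genes. Over all genes tested, 51% had a positive log2 fold change, 15.3% were higher and 10.9% lower at an unadjusted p under 0.05. The summed FPKM of 10 fiber markers was 16500 to 24605 in WT and 30073 to 32225 in KO muscle. The highest means were those of *Acta1* (7706 in WT, 13221.5 in KO) and *Ckm* (4637 in WT, 7646 in KO). Of 9 tested markers 7 were positive and 3 had an unadjusted p under 0.05 (*Acta1*, *Ckm* and *Myh2*). After the correction for GC content these 3 had log2 fold changes of 0.34, 0.41 and 0.61. *Mb*, *Myh1* and *Myh7* also stayed positive, while *Actn3*, *Casq1* and *Pygm* were at -0.21, -0.27 and -0.30. For *Myh7* the log2 fold change was 3.17 (standard error 1.85) before the correction, with WT replicate 8 at 0.0513 FPKM. Of 7 tested smooth muscle and pericyte markers, 6 were positive and 4 had an unadjusted p under 0.05 (*Acta2*, *Tagln*, *Myh11* and *Notch3*). After the correction for GC content these 4 had log2 fold changes of 0.69, 0.65, 0.35 and 0.091. The sum of the markers overlapped at 72.2 to 100.3 FPKM in WT and 76.6 to 103.7 FPKM in KO muscle. Its largest part was *Rgs5*, the 1 negative marker, at 44.9 to 70.4 FPKM in WT and 39.0 to 44.8 FPKM in KO muscle. The 6 endothelial markers summed to 42.7 to 47.7 FPKM in WT and 40.9 to 54.2 FPKM in KO muscle. Schwann cell and nerve markers summed to 27.5 to 102 and 31.4 to 132 FPKM, with the neuronal *Nefl* and *Snap25* listed at 0 in all libraries. Fibroblast markers summed to 383 to 550.2 and 362 to 455 FPKM, with 2 of 5 positive. The adipocyte markers summed to 223 to 422 and 270.2 to 504 FPKM, mostly of *Fabp4*, and all 4 were positive, with a median log2 fold change of 1.58 and 2 at an unadjusted p under 0.05. *Plin1*, a coat protein of lipid droplets, was at 0.138 to 0.4995 FPKM in WT and 1.14 to 7.37 FPKM in KO muscle (log2 fold change 2.79, adjusted p = 0.0852 by limma; 2.26 after the correction for GC content). *Adipoq*, which encodes adiponectin, overlapped between the genotypes (log2 fold change 1.65, adjusted p = 0.177 by limma; 1.70 after the correction). Of the leukocyte markers 4 of 5 were found, at 2.47 to 7.64 and 4.85 to 10.3 summed FPKM. Of 8 denervation genes 4 were tested, 2 positive and 2 negative with a median of -0.059, and *Ncam1* was the 1 gene of all these lists with an adjusted p under 0.05 (log2 fold change 1.41, adjusted p = 0.0300 by limma). *Gadd45a* lay under WT in all KO libraries (log2 fold change -0.36, adjusted p = 0.104 by limma), *Chrna1* had -0.35 and *Myog* 0.23. The part of these cell types in the channel results was not tested.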

How the data were processed

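Libraries were made with a stranded mRNA kit from total RNA. The authors mapped reads to GRCm38 with TopHat and deposited FPKM values per gene from Cufflinks, 1 column per library. Versions and the annotation release are not given in the sources used here. No counts were tested, so the precision of low values rests on the estimated depth. That depth was the number of fragments which best placed the low FPKM of genes with 1 transcript of 1500 to 6000 bases on whole fragments, and 88.8% to 94.2% of low values fell within 0.15 of one. Any pair of libraries had at most 1 identical value over 14983 genes above 0 throughout.

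For the comparison of genotypes, limma (version 3.58.1, R version 4.3.3) was fitted to log2(FPKM + 0.1) with a variance trend and genotype as the only term, over genes averaging 0.5 FPKM or more. The Cufflinks test of the study needs reads. Genes were called at an adjusted p (Benjamini-Hochberg) under 0.05. Coordinates and GC content came from GENCODE vM21 by identifier, or by symbol where that was unique, for 82 of the 84 entries. GC content was known for 98.5% of tested genes, and the correction subtracted a loess curve of span 0.3 per library. The script was checked on simulated data. Named genes are those with a mean of at least 1 FPKM, those tested with an unadjusted p under 0.05 or no overlap, and a list of muscle channels. Other channel genes (*Kcnn2* among them) are named to complete a family, chosen after their values were seen. The members and lists were chosen with earlier results of these data known. Alternatives covered the pseudocount, filter, scaling, variance model, array weights, replicate block, GC content, length, genes listed at 0 and each library left out. Genes of a family can share fragments. Values of some genes that the rule names are not reported here, while counts and medians include them. Figures used matplotlib 3.10.9.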

Additional observations from a re-analysis of the deposited data

How the results depend on the processing

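Among the 18 channel genes tested, limma called 0 at an adjusted p under 0.05 under every alternative except array weights, which called 4 higher and 0 lower. At an unadjusted p under 0.05, 4 were higher and 0 lower as reported. Without the filter and with array weights 1 was lower, after the correction for GC content 1 was higher and 1 lower, and after that correction together with the replicate block 0 were higher and 1 lower. With each library left out in turn, 1 to 7 were higher and 0 to 1 lower. The higher count was 7 without WT replicate 8, 1 without WT replicate 1 or WT replicate 7, and 2 with any single KO library left out. Shares of all genes at an unadjusted p under 0.05 are given only for the fit as reported and after the correction for GC content. The median log2 fold change of 0.25 was 0.071 without the filter and -0.13 after the correction for GC content, with or without the block, and it stayed between 0.11 and 0.38 with a library left out.

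Over all genes tested, 31 were called higher and 9 lower. These counts were 7 and 4 with a pseudocount of 1, 8 and 5 after a correction for length, 1 and 0 without genes listed at 0, and 1863 and 1284 with array weights. Higher calls alone came to 9 without the filter, 12 without the variance trend, 6 after the correction for GC content and 5 with that correction and the block. They ranged from 6 to 19 with each library left out, and lower calls from 5 to 19, with 19 of each without WT replicate 8. The cause was not tested.

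Deviations of libraries with the same replicate number correlated over all genes at -0.025, -0.080 and 0.034, beside -0.066 to 0.086 for different numbers. Such correlations show no pairing by number, but they cannot exclude that mice of the same number shared an origin or handling. The replicate block gave 6 higher and 7 lower calls over all genes and changed no call among the channel genes.

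The correction for GC content, with or without the replicate block, turned the sign of 9 of the 18 log2 fold changes. Among these were -0.17 for *Kcnc4*, -0.15 for *Kcnj12*, -0.36 for *Kcng4*, -0.0034 for *Kcnj8*, -0.26 for *Kcnf1*, -0.29 for *Kcnn1* and -0.014 for *Kcnk6*. *Kcnf1* also turned to -0.11 with a pseudocount of 1, -0.0057 with median ratio scaling, -0.99 with array weights, -0.31 without KO replicate 1 and -0.97 without WT replicate 1. With each library left out, *Kcnf1* ranged from -0.97 to 0.56, *Kcnj8* from -0.31 without WT replicate 8 to 0.54, and *Kcnn2* from -0.60 to 0.095 without KO replicate 1. In all, 10 of the 18 genes turned under some alternative. Depth limits the genes under the filter, which rest on few fragments per library.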
